A study of Mus musculus with 59 samples.

Results

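Lithium was compared with vehicle in the prefrontal cortex of female mice that carry 1 functional copy of Ash1l. The comparison used 9 of the 59 libraries of the study, namely 4 libraries labelled HT, lithium, female and 5 labelled HT, vehicle, female. They were taken by the shared start of their column names, without use of any measured value. The study as a whole sequenced messenger RNA of Ash1l heterozygous (HT) and wild-type (WT) C57BL/6J mice of both sexes that had been given vehicle, fluoxetine or lithium. All pups received the agent through the milk of the dam from postnatal day 3 to 24, for 3 weeks, and the tissue was taken on day 25. Both groups compared here were therefore heterozygous, and the dose, litters and dams of the pups were not analysed here. The p-values thus describe no more than the spread among libraries, part of which may be technical. In limma that spread was estimated within the groups of all 59 libraries. The lithium library called replicate 4 below carries the number 5 in its library name. The vehicle groups and the lithium groups of the other 3 strata (WT females, HT males and WT males), 30 libraries in all, served for comparison and shared no library with the 9.

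Ash1l encodes a histone methyltransferase that places methyl groups on lysine 36 of histone H3 and opposes silencing by Polycomb complexes, and loss of 1 copy is linked to autism. Lithium is a mood stabiliser that inhibits glycogen synthase kinase 3, which frees beta-catenin in the Wnt pathway, and inhibits inositol monophosphatase and related enzymes, which slows the recycling of inositol for phosphoinositide signalling. In the cortex after birth these pathways act in neurons and glia alike, while synapses and myelin are still forming.

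The depth over the 59 libraries was 24.47 to 36.32 M reads (median 27.98 M), and the 9 libraries had between 25.51 and 31.77 M. Xist, the X-inactivating RNA, was at 16578 to 39698 normalised counts in the 9 libraries, and Ddx3y of the Y chromosome was at 0 to 1, so all 9 matched the female label. Markers of excitatory cortical neurons were expressed in all 9, though not evenly. The summed normalised count of 12 such markers was 152585, 158766 and 173035 in HT vehicle female replicates 2, 4 and 5. It was 236262 and 227031 in vehicle replicates 1 and 3, and 202863 to 221227 in the lithium libraries. Slc17a7, the vesicular glutamate transporter of cortical neurons, ranged from 35646 to 57865 normalised counts, and Tbr1, a transcription factor of deep-layer neurons, ranged from 2806 to 4232. A normalised count is a read count divided by a size factor of its library, so that libraries of different depth can be compared for 1 gene.

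The libraries of HT vehicle females fell into separate clusters before any test. HT vehicle female replicates 2, 4 and 5 carried high levels of 12 genes that mark the olfactory bulb, which lies next to the frontal cortex. The mean log2(normalised count + 1) of these genes was 10.68, 10.29 and 11.14 in those 3 libraries. In HT vehicle female replicates 1 and 3 it was 7.40 and 7.51, and in the 4 lithium libraries it was 7.92 to 8.09. Eomes, a transcription factor of the bulb's projection neurons, was at 1006, 699 and 1425 in vehicle replicates 2, 4 and 5, at 1 in each of vehicle replicates 1 and 3, and at 2 to 17 in the lithium libraries. The first principal component of the 9 libraries, with 27.5% of the variance, placed vehicle replicates 2, 4 and 5 at 41.81, 30.72 and 40.97 and the other 6 libraries between -23.67 and -14.96. Markers of the striatum were highest in HT lithium female replicate 1, at a mean of 9.31, while the other 8 libraries had 7.26 to 8.11. The part of these libraries in each result below was measured by leaving them out or by adding the marker level to the model.

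**Figure D1:**
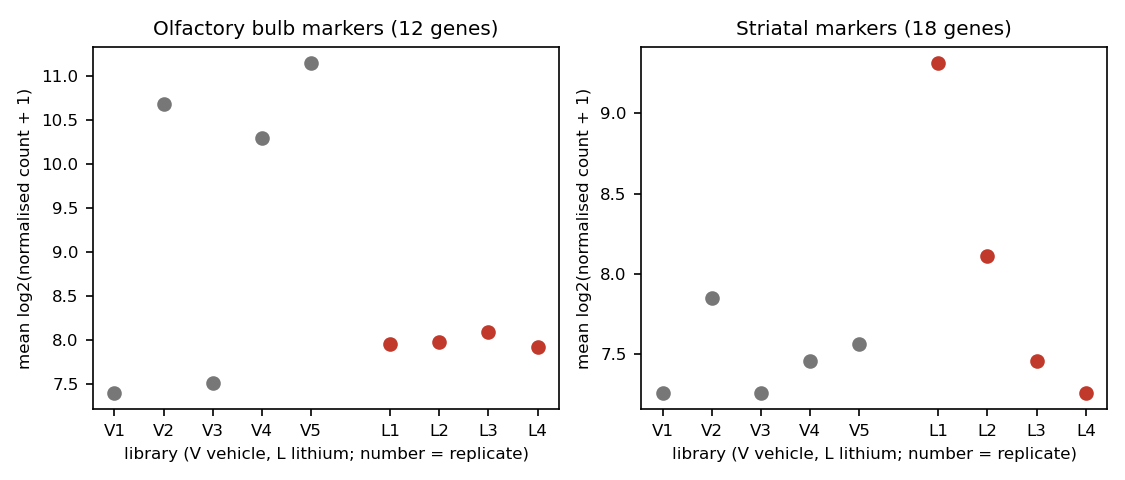
Mean log2(normalised count + 1) of 12 olfactory bulb markers (left) and 18 striatal markers (right) in each HT female library, with vehicle in grey and lithium in red; each axis starts above 0. Vehicle replicates 2, 4 and 5 lie at 10.29 to 11.14 on the left, all above the other 6 libraries at 7.40 to 8.09, and lithium replicate 1 is highest on the right at 9.31.

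Ash1l itself (ENSMUSG00000028053; GRCm38 chromosome 3, 88950622 to 89079375, plus strand) checked the genotype label. Its normalised count was 4163, 4320, 4130, 4382 and 4107 in vehicle libraries 1 to 5 and 3997, 3641, 3819 and 3782 in lithium libraries 1 to 4. All 9 values lay below those of 14 of the 15 WT female libraries, the exception being the library labelled WT vehicle female replicate 3, at 3557. Every lithium library lay below every vehicle library, and the difference was -0.15 ± 0.059 on the log2 scale (SE). It did not pass over all genes (limma, Benjamini-Hochberg adjusted p = 0.141). As a single value it gave p = 0.0159 in an exact two-sided permutation test, the smallest that 4 libraries against 5 can give. With the trends of each library with GC content and transcript length removed, the difference was -0.03.

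With lithium, 325 genes rose (1.82% of those tested) and 207 fell (1.16%) at an adjusted p under 0.05 (limma on log2(normalised count + 1), with 1 mean for each of 12 groups and Benjamini-Hochberg adjustment over 17875 genes). Together the 532 genes were 2.98% of those tested. The absolute log2 fold change of the called genes had a median of 0.384, and 21 of them differed at least 2-fold, 6 higher and 15 lower. In 384 of the 532 the values of the groups did not overlap, against 1344 genes over the whole table (7.52%, with 4.13% above and 3.38% below the vehicle range). The count depended on single libraries of the comparison. Leaving out vehicle replicate 2, vehicle replicate 4 or lithium replicate 3 alone gave 0 genes in limma, with 2862, 2574 and 2629 at an unadjusted p under 0.05. Leaving out lithium replicate 1 gave 100 genes, lithium replicate 2 gave 55, and vehicle replicate 5 gave 935. Without vehicle replicates 2, 4 and 5 together, 0 genes passed in limma and 2175 had an unadjusted p under 0.05, against 3631 with all libraries. That setting left vehicle replicates 1 and 3 alone against the lithium libraries, so a gene may fail to pass there for want of libraries. With the olfactory bulb marker level as a term of the model 332 genes passed, of which 244 were among the 532.

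Composition of the transcripts moved with the difference. Across 17864 genes with a value, which are not independent replicates, the log2 fold change had a Spearman rho of 0.481 with GC content and -0.115 with transcript length. The median GC content was 56.9% in the genes that rose, 43.2% in those that fell and 49.3% in all genes. With both trends removed from each library, 20 genes passed, 10 in each direction, and 17 of them were among the 532. Among the other strata the rho with GC content was -0.37 in WT females, 0.099 in HT males and 0.315 in WT males. The origin of the trend was not tested.

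**Figure D2:**
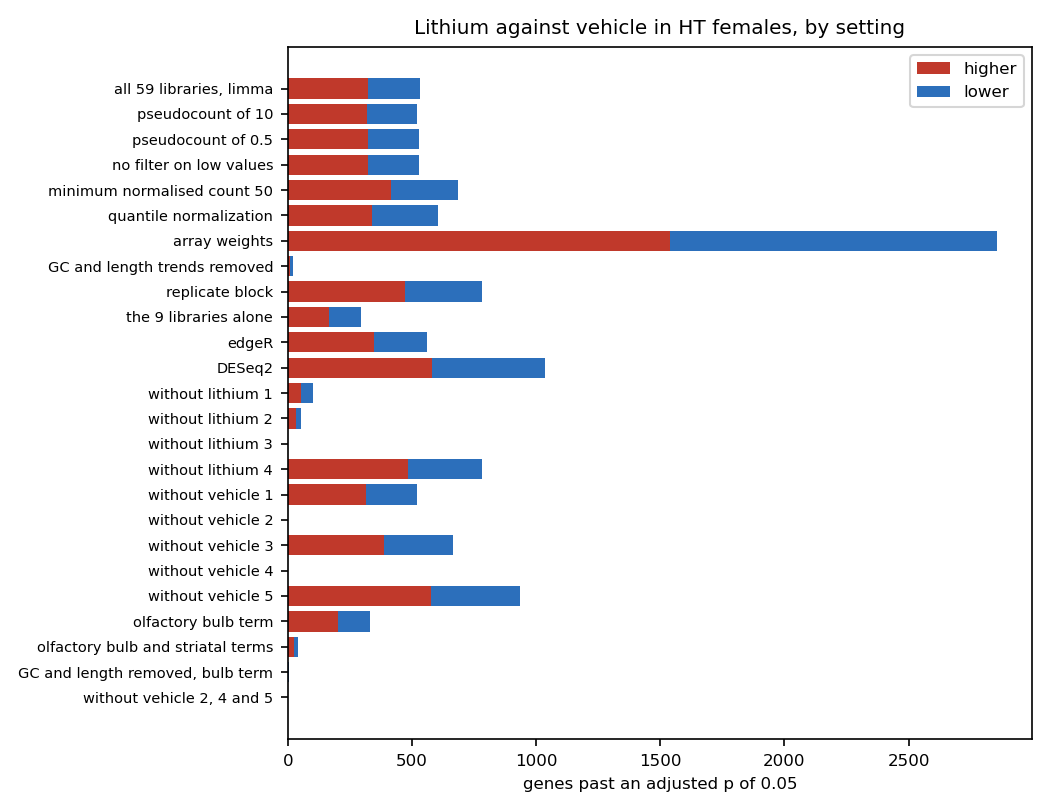
Number of genes past an adjusted p of 0.05 for lithium against vehicle in HT females (bars from 0; red higher, blue lower) with all libraries, under each other setting and with single libraries left out. The bar for all 59 libraries holds 532 genes, that for GC content and length trends removed holds 20, and those without vehicle 2, vehicle 4, lithium 3, or vehicle 2, 4 and 5 together, are empty.

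The gene with the smallest p among those that rose was Gpd1 (ENSMUSG00000023019; chromosome 15, 99717515 to 99725005, plus strand). It encodes cytosolic glycerol-3-phosphate dehydrogenase, which links glycolysis to lipid synthesis and shuttles reducing equivalents, and it is induced by glucocorticoids in brain. Its normalised count was 2016, 1816, 2169, 1683 and 2055 in vehicle libraries and 2785, 2515, 2694 and 2586 in lithium libraries. The lowest lithium library was above the highest vehicle library, and the log2 fold change was 0.45 ± 0.079 (limma, adjusted p = 0.0113). Without vehicle replicates 2, 4 and 5 it was 0.34 (adjusted p = 0.325).

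Further genes that rose fell into a few roles. Of phosphoinositide metabolism, Cdipt, which joins inositol to a lipid to make phosphatidylinositol, was at 3457, 3097, 3469, 3002 and 3404 in vehicle libraries and at 3883, 4049, 4242 and 4022 in lithium libraries. The groups did not overlap and the log2 fold change was 0.30 ± 0.059 (limma, adjusted p = 0.0133), or 0.17 with the GC content and length trends removed (adjusted p = 0.327). Pik3cd, a catalytic subunit of phosphoinositide 3-kinase, went from 646 to 860 in vehicle libraries to 1008 to 1166 in lithium libraries, with a log2 fold change of 0.47 ± 0.091 (limma, adjusted p = 0.0133). Of signalling and transcription, Tcea2, a transcription elongation factor, was at 844 to 1057 with vehicle and 1191 to 1402 with lithium (0.45 ± 0.090; limma, adjusted p = 0.0137). Phkg2, the catalytic subunit of phosphorylase kinase that starts glycogen breakdown, was at 1357 to 1466 with vehicle and 1618 to 1739 with lithium. Its log2 fold change was 0.26 ± 0.052 (limma, adjusted p = 0.0137), and it was 0.27 with the GC content and length trends removed (adjusted p = 0.0123), so its rise did not shrink there.

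Synaptic and membrane genes were among those that rose. Cplx1, a complexin that clamps vesicle fusion at synapses, was at 15077, 15179, 15299, 14638 and 17034 with vehicle and at 19857, 19619, 19659 and 17954 with lithium (log2 fold change 0.32 ± 0.068; limma, adjusted p = 0.0137). Rab15, a small GTPase of endosomal recycling, went from a mean of 6846 ± 534.1 (SD, n = 5) to 9305 ± 408.4 (SD, n = 4). B4galnt1, which makes the complex gangliosides of neuronal membranes, went from 2911 ± 394.9 to 4014 ± 148.5. The remaining named genes that rose, Ppp6r1 (a regulatory subunit of protein phosphatase 6), Ptp4a3 (a phosphatase), Plbd2 (a lysosomal protein) and Ggt7 (a gamma-glutamyltransferase family member), had log2 fold changes of 0.31 to 0.46. In none of these did the values of the groups overlap. With the olfactory bulb marker level as a term of the model, Plbd2 was at 0.36 and B4galnt1 at 0.39, and without vehicle replicates 2, 4 and 5 they were at 0.25 and 0.32. After removal of the GC content and length trends Cplx1 was at 0.20, Ppp6r1 at 0.18 and Ggt7 at 0.19, and none of these 7 genes passed.

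Among the genes that fell, Thsd7a (ENSMUSG00000032625; chromosome 6, 12311610 to 12749410, minus strand), which encodes a membrane protein with thrombospondin repeats, had the smallest p. It was at 1351, 1877, 1427, 1767 and 1535 with vehicle and at 1087, 1024, 924 and 1011 with lithium. The groups did not overlap, and the highest vehicle values were those of replicates 2 and 4, which carried the olfactory bulb markers. The log2 fold change was -0.64 ± 0.121 (limma, adjusted p = 0.0133), and -0.46 without vehicle replicates 2, 4 and 5. With the GC content and length trends removed it was -0.51 (adjusted p = 0.0348).

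Slc16a1 (ENSMUSG00000032902; chromosome 3, 104638668 to 104658462, plus strand) encodes monocarboxylate transporter 1, which carries lactate and ketone bodies across endothelium and glia. It was at 2129, 1981, 1832, 1842 and 1919 with vehicle and at 1503, 1438, 1199 and 1524 with lithium. Its level fell by 0.46 ± 0.090 on the log2 scale (limma, adjusted p = 0.0133) and was at -0.49 without vehicle replicates 2, 4 and 5, where it did not pass (adjusted p = 0.325). The vehicle libraries with high olfactory bulb markers, at 1842 to 1981, lay within the range of the other vehicle libraries, at 1832 and 2129. Over the 55 genes that the naming rule took from this comparison, all kept their direction without those 3 libraries and none passed (lowest adjusted p = 0.325 in limma), while 37 passed with the marker level as a term. With so few vehicle libraries left, failing to pass does not show that a difference came from the olfactory bulb. With the GC content and length trends removed, 7 of the 55 passed, and all kept their direction.

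The other named genes that fell had varied roles. Kdm6a, an X-linked demethylase of lysine 27 of histone H3, went from 1049 to 1206 with vehicle to 827 to 995 with lithium (-0.36 ± 0.071; limma, adjusted p = 0.0137), and was at -0.20 with the GC content and length trends removed (adjusted p = 0.104). Asf1a, a histone chaperone, had a log2 fold change of -0.60, and Khdrbs1, an RNA-binding splicing regulator, had -0.37. Of the extracellular matrix and the vessel and meningeal lineages, Fbln5, a matrix protein of elastic fibres, was at 264 to 313 with vehicle and 186 to 198 with lithium (-0.59 ± 0.126; limma, adjusted p = 0.0137). Foxc1, a transcription factor of meninges and pericytes, was at 191, 176, 161, 198 and 188 with vehicle and at 121, 116, 104 and 157 with lithium (-0.56 ± 0.122; limma, adjusted p = 0.0137), and at -0.66 with the GC content and length trends removed. Epha3, a receptor for ephrins in axon guidance, was at 412, 483, 399, 530 and 628 with vehicle and at 253 to 317 with lithium. Its log2 fold change was -0.82 with all libraries and -0.57 without vehicle replicates 2, 4 and 5. Yes1, a Src family kinase, Erap1, a peptidase of antigen trimming, Rimklb, an amino acid ligase, and Rcn2, a calcium-binding protein of the endoplasmic reticulum, fell by 0.72, 0.53, 0.37 and 0.33 on the log2 scale. With the trends removed Foxc1 was the 1 of these genes that passed, and Rimklb and Rcn2 were at -0.23 and -0.21. Rcn2 was also at -0.21 without vehicle replicates 2, 4 and 5.

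**Figure D3:**
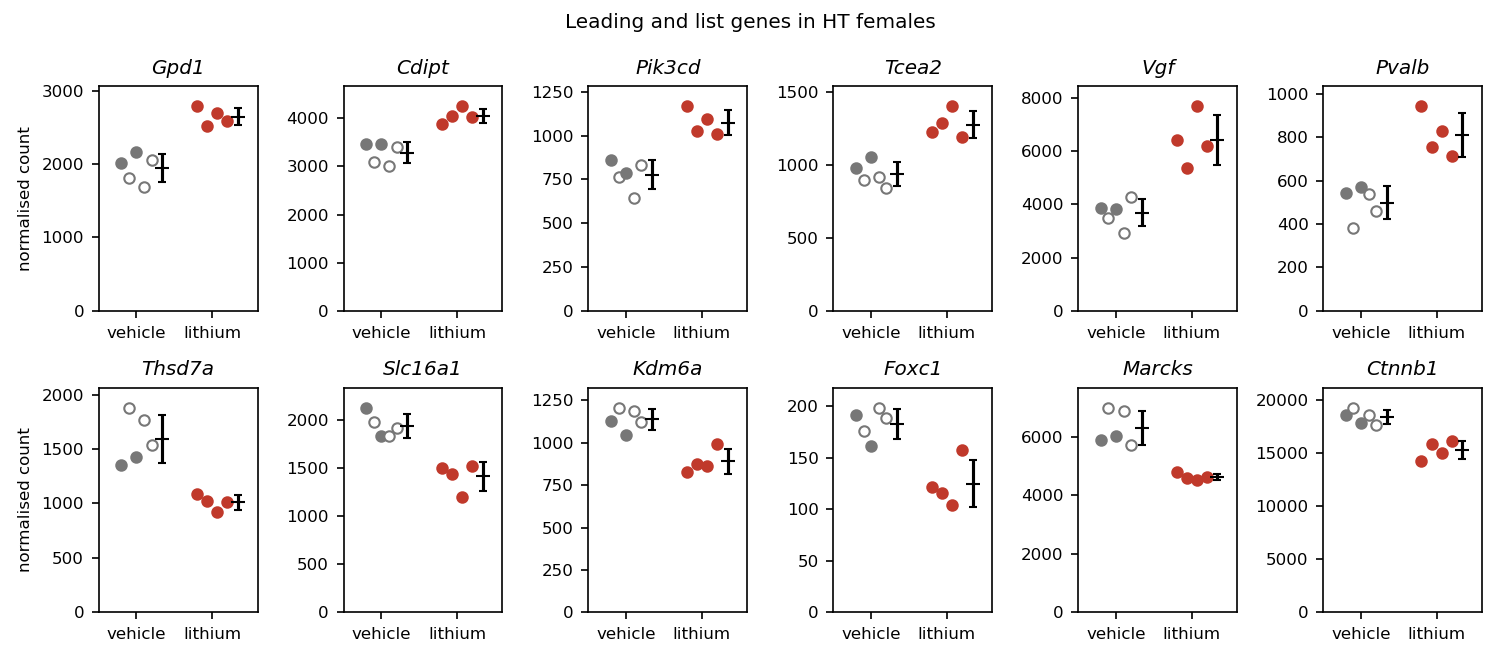
Normalised counts (axes from 0) of 12 genes in each HT female library; points are libraries, open grey points are vehicle replicates 2, 4 and 5, filled grey points are vehicle replicates 1 and 3, red points are lithium, and black bars give the mean and SD. In all 12 genes the vehicle and lithium libraries do not overlap, as in Vgf, at 2933 to 4294 with vehicle and 5377 to 7684 with lithium. The 12 were picked from the called genes, so this follows in part from the choice. Among all 532 called genes, 384 did not overlap.

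The genes with the largest differences were mostly of low abundance, and 19 of the 21 that differed at least 2-fold had a mean under 100 normalised counts with vehicle. The examples given here were chosen after their values were seen. Apold1, an immediate early gene of endothelial cells, was at 278, 457, 262, 360 and 766 with vehicle and at 167, 187, 187 and 137 with lithium, with a log2 fold change of -1.22 ± 0.342 (limma, adjusted p = 0.0398). The vehicle libraries with high olfactory bulb markers were its 3 highest. Slc18a3, the vesicular acetylcholine transporter of cholinergic neurons, was at 1 to 10 with vehicle and at 46, 19, 10 and 11 with lithium, the highest value being that of lithium replicate 1, which carried the striatal markers.

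Genes of glycolysis were described as a list with hypoxia-responsive genes. Of 31 members tested, 5 rose and 1 fell, which is 16.1% and 3.23% of the list, against 1.82% and 1.16% of all genes. The median log2 fold change was 0.18 and 23 members were above 0, or 74.2%, where all genes had a median of -0.003 and 49.4% above 0. The members that rose encode glycolytic enzymes, namely Gpi1 (0.27 ± 0.068; limma, adjusted p = 0.0245), Pfkm (0.23 ± 0.062; adjusted p = 0.0302), Aldoc (0.30 ± 0.078; adjusted p = 0.0272), Eno2 (0.19 ± 0.055; adjusted p = 0.0472) and Pkm (0.31 ± 0.089; adjusted p = 0.0398). Aldoc, the aldolase of astrocytes, was at 17136, 16575, 19892, 15735 and 18641 with vehicle and at 22470, 21254, 22301 and 20420 with lithium. Eno2, the neuronal enolase, was at 20340 to 22147 with vehicle and 22451 to 24976 with lithium, and Pkm was the 1 enzyme of these 5 with overlapping values. The summed normalised count of the list was 279941 to 321692 with vehicle and 323410 to 385803 with lithium. Of the hypoxia targets outside glycolysis, Vegfa, the vascular growth factor, was at -0.08 ± 0.11 (limma, adjusted p = 0.714). With the GC content and length trends removed the list's median was 0.13 and none of its members passed. With the olfactory bulb marker level as a term, Gpi1 (0.25; limma, adjusted p = 0.0448) and Slc16a1 passed, while Aldoc, Pkm, Eno2 and Pfkm did not (adjusted p = 0.0529 to 0.0652). Without vehicle replicates 2, 4 and 5 Gpi1 was at 0.16. Several of these enzymes have processed pseudogenes, and how reads shared with them were counted is not given in the sources used here.

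Promoters of Aldoc, Gpi1, Pfkm and Slc16a1 are shown because the first 3 genes rose and Slc16a1 fell within this list, and they span the range of matches among its 6 called genes. Where a gene has several listed starts, the one nearest to its annotated start was taken. They are RefSeq windows of 300 bases on GRCm38.p6, with capitals for matches to the core hypoxia-response letters ACGTG on either strand. Of 32851 windows in the table used, counted with 1 chromosome left out, 19.6% held ACGTG or its reverse complement CACGT. Aldoc (chr11:78322823-78323122, plus strand) held 1 match, Gpi1 (chr7:34230287-34230586, minus strand) held 0, and Pfkm (chr15:98092339-98092638, plus strand) and Slc16a1 (chr3:104638414-104638713, plus strand) held 3 each, of which a pair overlap in the palindrome CACGTG. The windows of Eno2 and Pkm, which also rose, held 0, so the matches did not separate the genes that rose from the 1 that fell. A match is a string of letters and is not a measured site of binding.
Aldoc: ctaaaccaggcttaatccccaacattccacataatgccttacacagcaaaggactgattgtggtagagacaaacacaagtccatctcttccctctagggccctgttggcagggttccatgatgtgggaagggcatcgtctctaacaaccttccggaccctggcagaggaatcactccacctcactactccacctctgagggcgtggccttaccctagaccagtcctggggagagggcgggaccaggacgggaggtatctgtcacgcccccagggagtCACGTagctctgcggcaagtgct
Gpi1: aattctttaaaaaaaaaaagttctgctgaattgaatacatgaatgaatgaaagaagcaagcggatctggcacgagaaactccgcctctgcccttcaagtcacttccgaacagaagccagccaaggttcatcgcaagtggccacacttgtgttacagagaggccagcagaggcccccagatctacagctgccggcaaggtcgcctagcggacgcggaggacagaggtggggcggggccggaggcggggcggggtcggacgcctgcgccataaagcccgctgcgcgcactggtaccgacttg
Pfkm: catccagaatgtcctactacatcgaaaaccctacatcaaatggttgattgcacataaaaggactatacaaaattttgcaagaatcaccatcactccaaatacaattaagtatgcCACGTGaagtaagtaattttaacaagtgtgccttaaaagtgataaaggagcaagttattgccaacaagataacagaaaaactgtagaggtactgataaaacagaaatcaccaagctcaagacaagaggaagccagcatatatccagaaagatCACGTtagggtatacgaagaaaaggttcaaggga
Slc16a1: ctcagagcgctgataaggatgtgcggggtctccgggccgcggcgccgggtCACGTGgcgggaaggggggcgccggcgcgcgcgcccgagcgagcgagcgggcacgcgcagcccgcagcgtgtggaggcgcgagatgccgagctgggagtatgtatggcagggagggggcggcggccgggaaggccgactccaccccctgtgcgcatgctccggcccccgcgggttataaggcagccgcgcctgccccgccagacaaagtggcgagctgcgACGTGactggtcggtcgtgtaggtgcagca

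Nuclear genes of oxidative phosphorylation were above 0 in 65 of 75 members (86.7%), with a median log2 fold change of 0.13. Of these, 5 rose and 0 fell, and the share that rose was 6.67% against 1.82% of all genes. Cox6a1, a subunit of cytochrome c oxidase, was at 6187, 5909, 5896, 4990 and 6918 with vehicle and at 7810, 8050, 8965 and 6383 with lithium (0.38 ± 0.098; limma, adjusted p = 0.0267). Lithium replicate 4 was the lowest lithium library for it and overlapped the vehicle range. Ndufa8, Ndufb10 and Ndufs6 of complex I and Atp5d of the ATP synthase rose by 0.25 to 0.38 on the log2 scale. After removal of the GC content and length trends Ndufs6 was the 1 of these 5 that passed (0.37; limma, adjusted p = 0.0466) and Atp5d was at 0.24. With the olfactory bulb marker level as a term the other 4 passed and Ndufs6 did not (0.29; limma, adjusted p = 0.0683). The 13 mitochondrially encoded genes had a median of 0.02 and none passed. Cytosolic ribosomal protein genes had a median of 0.08, and none of 78 passed.

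Among lithium's own targets and inositol metabolism, 1 of 21 members rose and 1 fell, or 4.76% each, against 1.82% and 1.16% of all genes. The first was Cdipt, given above. The second was Marcks (ENSMUSG00000069662; chromosome 10, 37133375 to 37138920, minus strand), a substrate of protein kinase C at the membrane and a known lithium-responsive protein. It was at 5899, 6983, 6022, 6866 and 5709 with vehicle and at 4779, 4575, 4537 and 4610 with lithium. All lithium libraries were lower, at -0.44 ± 0.099 (limma, adjusted p = 0.0162), and the value was -0.37 without vehicle replicates 2, 4 and 5. The enzymes that lithium inhibits had small differences, with Gsk3a at 0.17 ± 0.070, Gsk3b at -0.08 ± 0.087 and Impa1, inositol monophosphatase, at 0.15 ± 0.066, and none of them passed.

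In the Wnt pathway, 1 of 29 members rose and 1 fell (3.45% each, against 1.82% and 1.16% of all genes), with a median of -0.08. Ctnnb1, which encodes beta-catenin, was at 18629, 19274, 17870, 18606 and 17688 with vehicle and at 14306, 15846, 15054 and 16171 with lithium. The groups did not overlap, and the value was -0.26 ± 0.059 (limma, adjusted p = 0.0148) and -0.26 with the GC content and length trends removed (adjusted p = 0.0495). Rnf43, a ubiquitin ligase that removes Wnt receptors and is a Wnt target, was at 42 to 69 with vehicle and 66 to 105 with lithium (0.62 ± 0.165; limma, adjusted p = 0.0298), and the groups overlapped. It passed neither with the trends removed (limma, adjusted p = 0.17) nor with the olfactory bulb marker level as a term (adjusted p = 0.0609). In the other 3 strata 9 of the 29 members of this list fell and 0 rose, where 3.31% of all genes fell and 4.0% rose.

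In the list that holds Ash1l, of 26 enzymes that write or erase methylation on lysine 36 and lysine 4 of histone H3 and their partners, 3 fell and 0 rose (11.5% against 1.16% of all genes). They were Kdm6a, Kdm4c, a demethylase of lysines 9 and 36, at -0.29 ± 0.085 (limma, adjusted p = 0.0474), and Morf4l1, a reader of methylated lysine 36 that activates ASH1L, at -0.24 ± 0.069 (adjusted p = 0.0398). The median of the list was -0.08, and it was -0.04 with the GC content and length trends removed, where none passed. Under the olfactory bulb marker term Kdm6a passed, and Morf4l1 and Kdm4c did not (limma, adjusted p = 0.064 and 0.0929). Morf4l1 was at -0.13 without vehicle replicates 2, 4 and 5, and at -0.08 with the trends removed, where Kdm4c was at -0.16. Of 28 Polycomb genes 1 fell (3.57%, against 1.16% of all genes). It was Suz12, a core subunit of PRC2, at 1083, 1474, 998, 1399 and 1138 with vehicle and 931, 836, 746 and 901 with lithium. Its value was -0.50 ± 0.116 (limma, adjusted p = 0.0172), and -0.29 without vehicle replicates 2, 4 and 5. Of 50 autism risk genes 1 fell, Ctnnb1 (2.0%, against 1.16% of all genes).

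Markers of cortical interneurons split within the list. Of 17 members 2 rose (11.8%, against 1.82% of all genes), 0 fell and the median was 0.06. Pvalb, the calcium buffer of fast-spiking interneurons, was at 544, 382, 569, 536 and 462 with vehicle and at 941, 756, 826 and 712 with lithium. Sst, the neuropeptide somatostatin, was at 3800, 3461, 3625, 2809 and 3423 with vehicle and at 5414, 5611, 5462 and 4410 with lithium. The groups overlapped for neither gene, and the log2 fold changes were 0.70 ± 0.178 (limma, adjusted p = 0.0245) for Pvalb and 0.61 ± 0.157 (adjusted p = 0.0267) for Sst. With the olfactory bulb marker level as a term they were 0.49 and 0.52 and did not pass (adjusted p = 0.052 and 0.057). Calb2, calretinin, stands in this list and among the olfactory bulb markers, and followed the latter at 471, 3841, 463, 2976 and 5850 with vehicle and 443 to 671 with lithium. In bulk tissue, fewer cells of a type and less RNA per cell cannot be told apart.

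Neuronal activity and excitability genes were described next. Vgf (ENSMUSG00000037428; chromosome 5, 137026392 to 137033351, plus strand), a secreted neuropeptide precursor induced by neurotrophins, was at 3882, 3477, 3831, 2933 and 4294 with vehicle and at 6432, 5377, 7684 and 6195 with lithium. It rose by 0.80 ± 0.178 on the log2 scale (limma, adjusted p = 0.0148). Its value was 0.72 without vehicle replicates 2, 4 and 5 and 0.64 with the GC content and length trends removed (adjusted p = 0.0238). Vgf was the 1 member that passed of 15 neurotrophin genes. Grin1, the obligatory subunit of NMDA receptors, rose by 0.42 ± 0.11 (limma, adjusted p = 0.0292). Gphn, gephyrin, the scaffold of inhibitory synapses, fell by 0.23 ± 0.064 (limma, adjusted p = 0.0335). Grin1 was at 0.27 with the trends removed, and neither gene passed there or with the olfactory bulb marker level as a term (limma, adjusted p = 0.0536 and 0.055 in the latter). Each was the 1 member that passed in its list, of 17 glutamate receptor genes and of 16 genes of GABA-A receptors with gephyrin. None of the 36 genes tested in the immediate early list passed, and that list does not hold Apold1, which is given above.

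Glial and border cell markers differed in direction between members. In astrocytes Aldoc rose while Aqp4, the water channel of end-feet, fell by 0.49 ± 0.137 (limma, adjusted p = 0.038) and Gja1, connexin 43, fell by 0.29 ± 0.087 (adjusted p = 0.0472). Aqp4 was at 4564, 4075, 4917, 5068 and 5248 with vehicle and at 3535, 3513, 2995 and 3508 with lithium, so the groups did not overlap. C1qa, a complement component of microglia, rose by 0.32 ± 0.091 (limma, adjusted p = 0.0417) with overlapping values. None of Aldoc, Aqp4, Gja1, C1qa and Dcn passed with the GC content and length trends removed, where Gja1 was at -0.15 and C1qa at 0.19, or with the olfactory bulb marker level as a term (limma, adjusted p = 0.0529 to 0.0876). All 13 markers of meningeal fibroblasts were below 0, with a median of -0.47, and 1 of them passed. It was Dcn, decorin, at 500, 458, 535, 505 and 624 with vehicle and 294, 337, 244 and 351 with lithium (-0.78 ± 0.225; limma, adjusted p = 0.0443). The summed count of the fibroblast list was 25639 to 34051 with vehicle and 19923 to 25369 with lithium. The 17 myelin genes were all above 0 with a median of 0.37 and none passed, and HT vehicle female replicate 1 had the lowest summed count of that list in the whole study, at 80004. Olfactory bulb markers had a median of -1.31, with none above 0 and none passing. The part of such differences in tissue in each gene's value was not tested beyond the settings given.

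**Figure D4:**
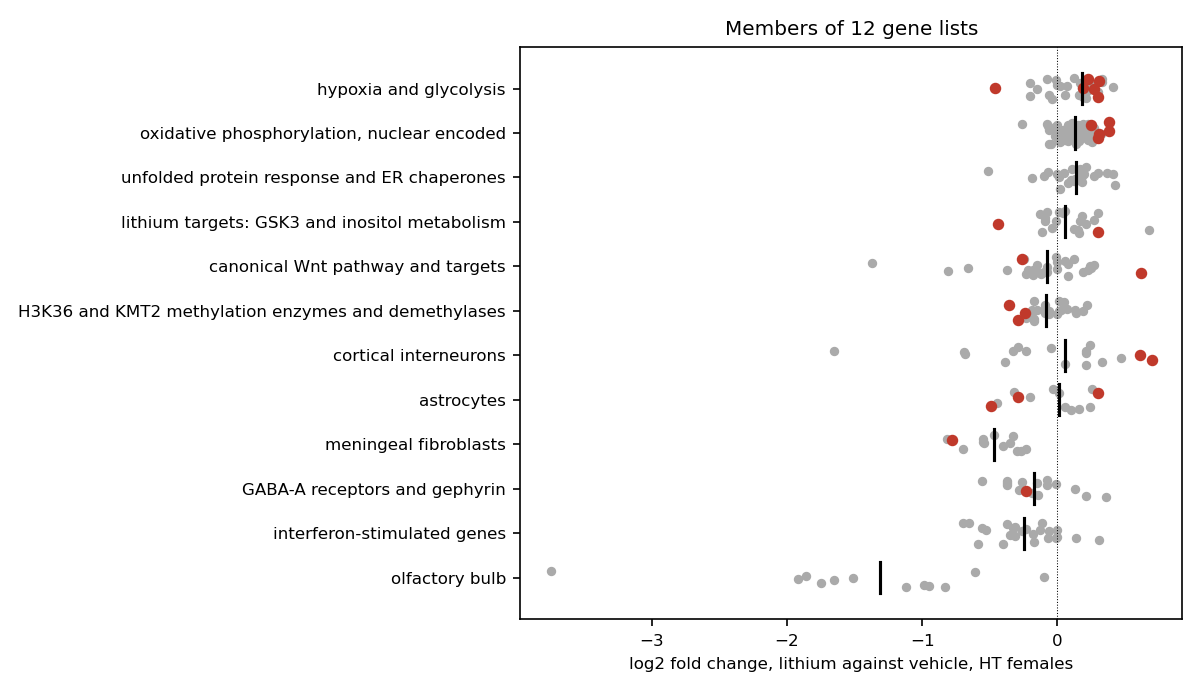
Log2 fold change, lithium against vehicle in HT females, of each tested member of 12 gene lists; red points passed an adjusted p of 0.05 over all genes, grey points did not, and black lines are medians. The median was 0.18 for hypoxia and glycolysis, -0.47 for meningeal fibroblasts and -1.31 for the olfactory bulb.

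Further lists held 1 or 2 calls. Igfbp5, a binding protein of insulin-like growth factors, fell from 4015 to 6254 with vehicle to 2673 to 3911 with lithium (-0.53 ± 0.121; limma, adjusted p = 0.0168). It was at -0.30 without vehicle replicates 2, 4 and 5 and at -0.51 with the GC content and length trends removed (adjusted p = 0.0466). Jag1, a Notch ligand, fell by 0.52 ± 0.146 (limma, adjusted p = 0.038), and the zinc transporters Slc30a9 and Slc39a8 fell by 0.22 and 0.49. These 3 were at -0.47, -0.09 and -0.32 with the GC content and length trends removed and did not pass. Hr, a thyroid hormone-responsive corepressor, was at 916 to 1118 with vehicle and at 1437 to 1673 with lithium (0.52 ± 0.141; limma, adjusted p = 0.0329). Under the olfactory bulb marker term Jag1 and Hr did not pass (limma, adjusted p = 0.0832 and 0.0694). Gpd1 was the 1 member that passed of 24 glucocorticoid-responsive genes, which had a median of 0.17. None of 26 genes of the unfolded protein response passed, though 22 were above 0, with Sdf2l1, an endoplasmic reticulum chaperone cofactor, at 0.43 ± 0.195 and Hyou1, a chaperone, at 0.27 ± 0.092. None of 24 interferon-stimulated genes passed, and 2 of them were above 0 (median -0.25). No member of the cholesterol synthesis, circadian clock, heat shock or serotonin receptor lists passed.

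The same genes were then read in mice that share no library with the 9. On average over WT females, HT males and WT males, 715 genes rose (4.0%) and 591 fell (3.31%) with lithium (limma, adjusted p under 0.05), in all 7.31% of those tested. Of the 532 genes, 145 also passed there, and all 145 had the same direction in both, 97 higher and 48 lower. They were 27.3% of the genes called in HT females and 11.1% of those called in the other strata. Of the 532, 466 (87.6%) had the same direction in the other strata, against 60.5% of all genes. By stratum the share was 92.9% in HT males (all genes 64.8%), 97.7% in WT males (70.4%) and 40.2% in WT females (41.7%). With the GC content and length trends removed it was 61.5% in WT females, against 50.6% of all genes. Olfactory bulb markers had a median log2 fold change of -0.43 in HT males, -0.76 in WT males and 0.7 in WT females. In HT females their median was -1.31, so these strata differed in tissue as well. The part of this in the shared directions was not tested.

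**Figure D5:**
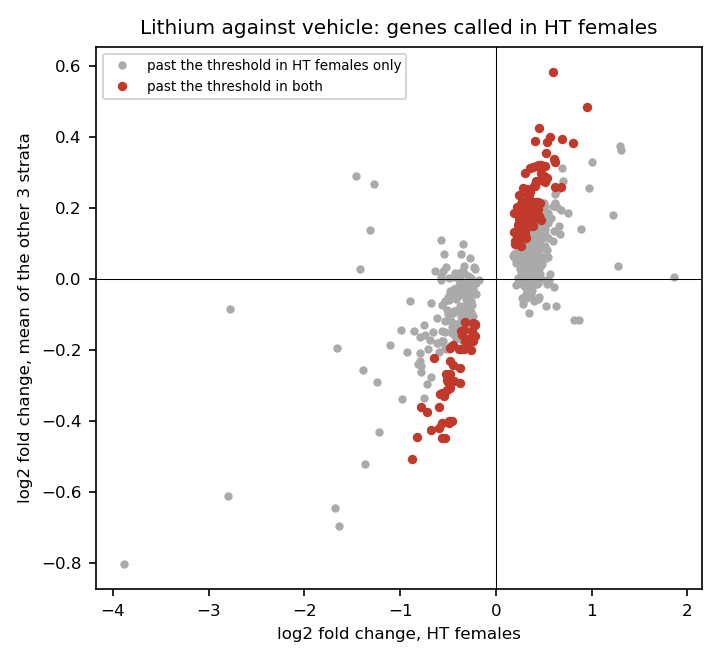
The 532 genes past the threshold in HT females, with their log2 fold change there (horizontal) and in the mean of WT females, HT males and WT males (vertical); red points passed in both. All 145 red points lie in the lower left or upper right part.

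Named genes that passed in both included several with the smallest p in HT females. Slc16a1 was at -0.40 ± 0.049 in the other strata (limma, adjusted p = 5.46e-07), with -0.42, -0.50 and -0.28 in WT females, HT males and WT males. Foxc1 was at -0.41 ± 0.066 (adjusted p = 6.45e-05) and Igfbp5 at -0.45 ± 0.066 (adjusted p = 2.19e-05). Tcea2 was at 0.32 ± 0.049 (limma, adjusted p = 2.56e-05), with 0.14, 0.47 and 0.35 in the 3 strata. Vgf was at 0.38 ± 0.097 (limma, adjusted p = 0.0086), though it was at -0.00 in WT females and at 0.55 and 0.61 in HT and WT males. Ctnnb1 (-0.20), Marcks (-0.29), Aqp4 (-0.40), Gpd1 (0.18), Cdipt (0.16) and Phkg2 (0.14) passed in both as well. In WT females alone they were at -0.13, -0.12, -0.25, 0.02, 0.11 and 0.05. Gpd1 alone of these passed the interaction of lithium with genotype in females (0.43; limma, adjusted p = 0.0132). Pvalb and Sst did not pass in the other strata, where they were at 0.28 ± 0.097 and -0.02 ± 0.085. These averages join opposite directions. In WT females, HT males and WT males Pvalb was at -0.12, 0.58 and 0.37, and Sst was at -0.44, 0.08 and 0.29. Of the 26 unfolded protein response genes, 9 rose in the other strata, where 4.0% of all genes rose. Hspa5, the main chaperone of the endoplasmic reticulum, was among them at 0.28 (limma, adjusted p = 0.0137), while in HT females it was at 0.20 ± 0.137 (adjusted p = 0.434).

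Whether the difference in HT females departed from that in the other groups was tested directly. The interaction of lithium with genotype in females passed for 1465 genes (limma; 8.2% of those tested), with 606 (3.39%) more positive and 859 (4.81%) more negative in HT than in WT females. The genes with the smallest p were Smchd1, an X-inactivation chromatin protein (-0.69; adjusted p = 0.00321), and Selenow, a selenoprotein (0.67; adjusted p = 0.00321). Smchd1 was at 1249, 1510, 1325, 1488 and 1159 with vehicle and at 1063, 969, 950 and 1209 with lithium in HT females, a log2 fold change of -0.36, against 0.33 in WT females. Selenow was at 10363 to 12915 with vehicle and 13261 to 15700 with lithium, or 0.32, against -0.35 in WT females. With the GC content and length trends removed, 10 genes passed this interaction, and 621 without the library labelled WT vehicle female replicate 3. Without HT vehicle female replicates 2, 4 and 5, 81 genes passed. Olfactory bulb markers differed in opposite directions, with a median log2 fold change of -1.31 in HT females and 0.7 in WT females. Their mean level was 10.61 and 10.39 in WT lithium female replicates 1 and 2, and 7.32 to 9.59 in WT vehicle females. With the olfactory bulb marker level as a term 2323 genes passed, and the part of these markers in single genes was not tested.

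The interaction of lithium with sex in HT mice passed for 0 genes (limma), with 1055 at an unadjusted p under 0.05, and edgeR and DESeq2 also called 0. The genes with the smallest p were Tmem189, at 0.27 in HT females and -0.06 in HT males, Cenph, at -0.67 and 0.92, and Rspo1, at 0.55 and -0.51. The difference between HT females and the mean of the other 3 strata passed for 0 genes (limma; edgeR 0, DESeq2 30), with 2205 at an unadjusted p under 0.05. Myh7b, a myosin heavy chain, was among the 3 genes with the smallest p there, at 0.82 ± 0.185 in HT females and -0.12 ± 0.100 in the others.

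Lithium was also set against fluoxetine in HT females, a comparison that needs no vehicle library. In it 62 genes were higher (0.347%) and 39 lower (0.218%) with lithium (limma, adjusted p under 0.05; 0.565% of those tested in all). The lithium libraries are the same as in the comparison with vehicle, so the values are given side by side. Cplx1 was at 0.37 (adjusted p = 0.00696), Tcea2 at 0.47 (adjusted p = 0.0109), Pvalb at 0.91 (adjusted p = 0.0124), Kdm6a at -0.35 (adjusted p = 0.0139) and Cdipt at 0.27 (adjusted p = 0.0193). Fluoxetine against vehicle uses the same vehicle libraries as the lithium comparison, and there Cplx1 was at -0.05, Tcea2 at -0.02, Pvalb at -0.20, Kdm6a at -0.00 and Cdipt at 0.03. These genes are among the 17 named genes that passed between the drugs. Most named genes called against vehicle had the same sign with fluoxetine against vehicle, 29 of 33 that rose and 27 of 29 that fell. These genes were chosen with the same vehicle libraries, so a shared sign was favoured in advance and does not measure likeness of the drugs. The share over all genes was not computed. Slc16a1 was at -0.46 with lithium and -0.33 with fluoxetine against vehicle, and the drugs differed by -0.13 (adjusted p = 0.555). With the olfactory bulb marker level as a term, 5 genes separated lithium from fluoxetine. Olfactory bulb markers were at a mean of 9.07 to 10.69 in the 5 fluoxetine libraries, above all 4 lithium libraries.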

How the data were processed

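RNA of prefrontal cortex was sequenced, and the authors deposited 1 table of gene-level signal for 59 libraries, in which each value is a read count divided by a size factor of its library. Per the submitters' processing notes the tools were Salmon 0.11.2, R 3.6.0 and DESeq2 1.19.11 with GRCm38, and the sources used here do not state the annotation, strand setting or filter of genes. Read counts were recovered from the steps of the deposited values, and 100% of values came out whole within 0.01 read. Depth was 24.47 to 36.32 M reads, so low genes carry the larger counting error.

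The table holds 18088 genes. Those with a normalised count of at least 10 in at least 5 libraries (17875) were tested with limma 3.58.1 (trend and robust options, R 4.3.3) on log2(normalised count + 1), a scale that understates changes of low genes, with 1 mean for each of 12 groups over all 59 libraries. P-values were Benjamini-Hochberg adjusted over all genes tested, with a threshold of 0.05, and the error after ± of a log2 fold change is its SE. Limma was used because the deposited values are scaled. Alternatives were edgeR 4.0.16 and DESeq2 1.42.0 on the recovered reads, other pseudocounts, filters and scalings, a replicate block, removal of GC content and length trends within each library (GENCODE M21 gene models, GRCm38), marker levels as terms, and libraries left out. The last 2 kinds that concern olfactory bulb and striatal markers were added after seeing the data.

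Named genes were the 12 with the smallest p in each direction among those called (predicted and clone-named genes left out), the members of the gene lists that were called, Ash1l, and up to 6 genes with the smallest p in each interaction, or 3 where fewer than 3 passed. The members and the lists were chosen with earlier results of these data known. Single values used an exact two-sided permutation test over libraries. On simulated counts for 17875 genes, 77% of 100 genes changed by 0.5 on the log2 scale and 93% of 100 changed by 1.0 were recovered. In those counts 0 were in the wrong direction and 13 unchanged genes were called. Recovery under the differences in olfactory bulb markers and GC content trends of the deposited libraries was not tested.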

Additional observations from a re-analysis of the deposited data

Results flagged for a closer look

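Of 112 groups of values checked for a library far from the rest, 5 held one, and chance gives about 1 in 20 groups. Cplx1 was at 17954 in HT lithium female replicate 4, against 19619 to 19857 in the other lithium libraries. Sst was at 4410 in the same library, against 5414 to 5611. Aqp4 was at 2995 in HT lithium female replicate 3, against 3508 to 3535. Hr was at 916 in HT vehicle female replicate 4, and Slc30a9 was at 4101 in HT vehicle female replicate 5. In the first 4 of these genes the vehicle and lithium values still did not overlap.

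The difference with lithium departed between HT and WT females in 1465 genes by the interaction term of limma (Benjamini-Hochberg adjusted). The 6 with the smallest p were Smchd1 (-0.69), Selenow (0.67), Dhx15, an RNA helicase of splicing (-0.73), Il1rapl1, a synaptic adhesion protein (-0.95), Dhx36, a helicase of quadruplex RNA and DNA (-0.70), and Pgap1, an enzyme of lipid-anchored proteins (-1.0), as differences of log2 fold changes. Without the 3 HT vehicle libraries with high olfactory bulb markers the first 5 had an adjusted p of 0.045 and Pgap1 had 0.065. With GC content and length trends removed, Smchd1 (-0.38) and Dhx15 (-0.55) were the 2 of these 6 that passed.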

How the results depend on the processing

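In HT females the 532 genes became 20 with GC content and length trends removed, 43 with olfactory bulb and striatal marker levels as terms, 332 with the olfactory bulb level alone and 5 with that level and the trends removed. They became 295 with the 9 libraries fitted alone, 1035 by DESeq2 and 2854 with array weights, and 0 in limma without the 3 vehicle libraries with high olfactory bulb markers (2175 at an unadjusted p under 0.05). Single libraries left out gave 0 to 935. For the other 3 strata the count of 1306 became 2203 with array weights, 2017 with both marker levels and 1995 with trends removed and the olfactory bulb level. The genotype interaction (1465) became 3384 with array weights, 10 with trends removed, 642 in its groups alone, 2323 with the olfactory bulb level, 2 with that level and trends removed, and 81 without the 3 vehicle libraries. Single libraries gave 480 (without HT vehicle female replicate 4) to 2408 (without HT vehicle female replicate 5). HT females against the other strata went from 0 to 1093 with array weights and 30 by DESeq2. Lithium against fluoxetine (101) became 943 with array weights, 252 in its groups alone, 66 by edgeR, 244 by DESeq2, 5 with the olfactory bulb level, 6 with both levels, 13 with that level and trends removed, and 0 (without HT lithium female replicate 1) to 106 with single libraries left out. Genes called in both HT females and the other strata (145) became 562 with array weights, 15 with trends removed, 256 by DESeq2, 33 with both marker levels, 3 with the olfactory bulb level and trends removed, 0 without the 3 vehicle libraries, and 0 to 175 with single libraries left out. The cause of these shifts was not tested. No named value reversed under these settings, and Ash1l stayed between -0.17 and -0.13 with single libraries left out. Other pseudocounts, filters and quantile scaling moved each count by under 1.5 times.

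With the replicate number as a block, 782 genes passed in HT females, 531 of them among the 532. The residuals of same-numbered vehicle and lithium libraries correlated at -0.022 to 0.11 over 4 pairs, and those of other pairs at -0.008 on average. Paired by the number in the library name they correlated at -0.152 to 0.066. Litters and cages were not analysed, so these values cannot tell whether a pair shares more than a number. Depth limits low genes: a gene at 10 normalised counts rests on about that many reads.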
